A study of Caenorhabditis elegans with 2 samples.

Results

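The body wall muscle genes are a group of 42 protein-coding genes of the nematode Caenorhabditis elegans, listed by symbol and found by that symbol in the Ensembl annotation, out of 19973 protein-coding genes on the nuclear chromosomes. No measured value served as a criterion, but the list was drawn up with earlier results of these data known. By role, 7 belong to the thick filament, 15 to the thin filament, 5 to the giant and immunoglobulin-domain proteins of the sarcomere, 12 to its attachment sites, 2 to calcium handling and 1 is a muscle transcription factor. Binding of CEH-27, an NK-2 class homeodomain protein, was mapped by ChIP-seq, which recovers the chromatin that a protein is crosslinked to and sequences its DNA. The samples were replicates 1 and 4 of 1 group, 2 in all. Both were whole young adults at 73 hours, pooled male and female, grown from L1 larvae starved after bleaching. Both were of strain OP139, which carries the integrated transgene wgIs139, a fosmid with ceh-27 fused to TY1, EGFP and 3xFLAG tags, with unc-119(+) as the marker in an unc-119(ed3) mutant background. Recovery used an anti-GFP antibody per the description, while the antibody field of the labels reads ceh-27. The tag is on the fosmid copy of ceh-27, all worms were of that 1 strain, and no worms without a tag were analysed here. Because whole worms were used, the number of cells in which a site was occupied and the occupancy in each cell cannot be told apart, and no peak can be assigned to muscle cells.

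Body wall muscle drives the worm's swimming and crawling. Its cells are obliquely striated and do not fuse. Myosin thick filaments are anchored at M-lines and actin thin filaments at dense bodies, and both structures are tied by integrin to the basement membrane, so that force reaches the cuticle. Calcium released into the cytoplasm moves troponin and tropomyosin on the thin filament and lets myosin act. NK-2 class homeodomains bind sequences with the core AAGTG. A relative of ceh-27 in the same class, ceh-22, is known for its part in the muscle of the worm's pharynx, while HLH-1, the worm's MyoD, is the regulator best known in body wall muscle.

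The authors deposited 4 lists of regions, each region with a summit and a signal, on a scale that the sources do not state. These were 1 list for each replicate and 1 for both pooled, all 3 of 30000 regions and therefore including background, and a reproducible set of 2328 regions that passed a threshold on the irreproducible discovery rate. The reproducible set was the same as the 2328 strongest pooled regions, with signals from 91.7 to 1263 (median 134.6). Signal over each whole list had a median of 19.01 in replicate 1, 27.7 in replicate 4 and 38.7 in the pooled list, so that ranks, not signals, were set side by side between lists. The lists give no numbers of reads, which leaves the depth of each library unknown. With 1 group no test between conditions exists, and counts over the 42 genes are given beside the share of all protein-coding genes.

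Of the 42 body wall muscle genes, 6 (14.3%) had a reproducible summit in the promoter window, which takes in the 1000 bp before and the 200 bp after each 5' end annotated for a protein-coding transcript. The share over all genes was 8.46% (1689 of 19973). The 6 were act-1, act-2 and act-4, which encode actins, cpn-3, which encodes a calponin, unc-60, which encodes actin depolymerising factor and cofilin proteins, and unc-112, which encodes the worm's kindlin. The first 5 are thin filament genes, 5 of 15, while unc-112 was 1 of 12 attachment genes. None of the 7 thick filament genes, the 5 giant and immunoglobulin-domain genes, the 2 calcium genes or hlh-1 had one. Among the 2328 strongest regions of each replicate, 7 members (16.7%) had a promoter summit in replicate 1, against 8.46% of all genes, and 5 (11.9%) in replicate 4, against 8.07%. The 7 of replicate 1 were the same 6 genes and unc-89, and the 5 of replicate 4 were the same 6 without act-1.

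**Figure D1:**
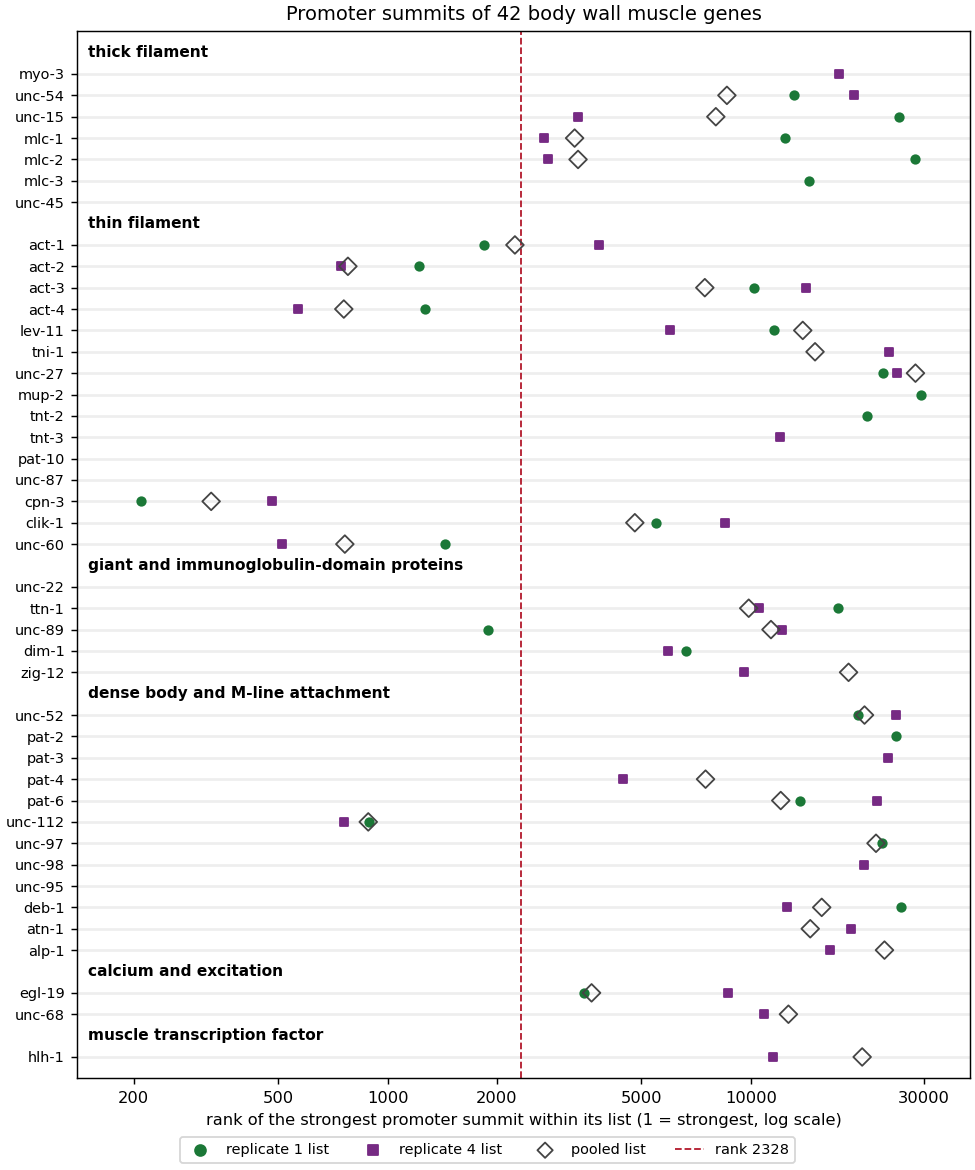
Rank of the strongest promoter summit of each of the 42 genes within each list (log axis, 1 is the strongest), by role. Green circles stand for replicate 1, purple squares for replicate 4 and hollow diamonds for the pooled list; a row without a marker has no promoter summit in that list. The dashed line is rank 2328, the lower edge of the reproducible set, and act-1, act-2, act-4, cpn-3, unc-60 and unc-112 are the genes whose pooled diamond lies to its left.

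The actins form the core of the thin filament, and 3 of the 4 actin genes on the list had reproducible promoter peaks. The act-4 gene had a pair of them, 1 in front of each of its annotated 5' ends. The upstream peak (X, 4960366 to 4960709, build ce11) had its summit 83 bp upstream of the distal 5' end, with a signal of 50.7 (rank 1265) in replicate 1, 127 (rank 567) in replicate 4 and 169.8 (rank 758) in the pooled list. The other act-4 peak (X, 4962435 to 4962592) lay 407 bp upstream of the proximal 5' end, in an intron of the longer transcript, and had signals of 46.3 (rank 1519), 123 (rank 613) and 162 (rank 820) in the same lists. Both act-4 peaks therefore stood among the 2328 strongest regions of each replicate, and both ranked higher in replicate 4 than in replicate 1.

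On chromosome V, act-1 and act-2 point away from each other with 2898 bp between their 5' ends, and each had its own peak in that stretch. The act-2 peak (V, 11078498 to 11078596) had its summit 392 bp upstream of the 5' end and a signal of 51.4 (rank 1224) in replicate 1, 111.8 (rank 746) in replicate 4 and 167 (rank 778) in the pooled list. The act-1 peak (V, 11080287 to 11080630) lay 593 bp upstream and had signals of 42.2 (rank 1841), 49.3 (rank 3816) and 93.6 (rank 2242). It was thus near the lower edge of the reproducible set and fell outside the 2328 strongest regions of replicate 4. The third gene of the cluster, act-3, whose 5' end is 3656 bp from that of act-2, had a summit 107 bp upstream with a pooled signal of 52.7 (rank 7470), 22 (rank 10190) in replicate 1 and 28.5 (rank 14160) in replicate 4. It ranked below 2328 in all 3 lists. Actin genes are near-identical in their coding parts, and the peaks lay outside coding sequence. Of the 66 runs of 36 bases in each window of 101 bp around these 4 summits, none was found elsewhere in the genome for act-1, act-2 or the upstream act-4 summit, and 5 were for the intronic act-4 summit.

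The 101 bases around these summits show what sequence lay under the actin peaks. They were read from the RefSeq sequence of WBcel235, the assembly that is also called ce11, each on the strand of its own gene, 5' to 3'. Capitals mark GAGAG or its reverse complement CTCTC, and AAGTG or its reverse complement CACTT where either occurs. The windows are chrV:11080409-11080509 (plus strand) for act-1, chrV:11078496-11078596 (minus strand) for act-2, and chrX:4960488-4960588 and chrX:4962418-4962518 (both plus strand) for act-4.
act-1: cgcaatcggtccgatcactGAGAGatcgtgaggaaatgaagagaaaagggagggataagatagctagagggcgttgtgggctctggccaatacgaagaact
act-2: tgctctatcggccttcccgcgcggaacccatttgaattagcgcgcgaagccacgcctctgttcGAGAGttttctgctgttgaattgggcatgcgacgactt
act-4, upstream of the distal end: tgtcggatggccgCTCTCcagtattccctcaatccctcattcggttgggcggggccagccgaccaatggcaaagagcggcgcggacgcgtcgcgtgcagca
act-4, in the intron: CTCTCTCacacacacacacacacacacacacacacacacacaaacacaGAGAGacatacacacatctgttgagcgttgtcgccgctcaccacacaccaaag
Each of the 4 windows held the GA run and none held AAGTG on either strand. The nearest AAGTG lay 53 bp from the summit at act-2, 299 bp at act-1, and 540 and 410 bp at the act-4 peaks. The intronic act-4 window held a long CA repeat, and the window upstream of the distal end had the highest GC content of the muscle peaks, 65.3%.

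Besides the actins, unc-60 and cpn-3 were the thin filament genes with reproducible promoter peaks. The unc-60 gene encodes a non-muscle and a muscle isoform of the cofilin family, proteins that sever and turn over actin filaments. Its peak (V, 1474496 to 1474839) had the summit 418 bp upstream of the 5' end, in a window that also belongs to the neighbouring gene F53E2.2, so that the summit cannot be assigned to 1 of the 2 genes. The signal was 47.5 (rank 1442) in replicate 1, 132 (rank 512) in replicate 4 and 169 (rank 763) in the pooled list, well inside the strongest regions of both replicates. Its window of 101 bases, chrV:1474618-1474718 on the plus strand, is shown because it is the one muscle peak that 2 genes share, with GAGAG or CTCTC in capitals as before.
unc-60: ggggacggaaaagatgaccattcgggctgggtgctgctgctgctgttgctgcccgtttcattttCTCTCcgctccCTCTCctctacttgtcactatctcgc
This window too held CTCTC and no AAGTG.

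The strongest peak at any body wall muscle gene was at cpn-3, a calponin, one of a family of actin-binding proteins. It lay on chromosome I from 3987198 to 3987370, 649 bp upstream of the 5' end, with a signal of 104 (rank 210) in replicate 1, 137 (rank 482) in replicate 4 and 243 (rank 327) in the pooled list. It was the strongest of the muscle peaks in both replicates as well as in the pooled list.

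**Figure D2:**
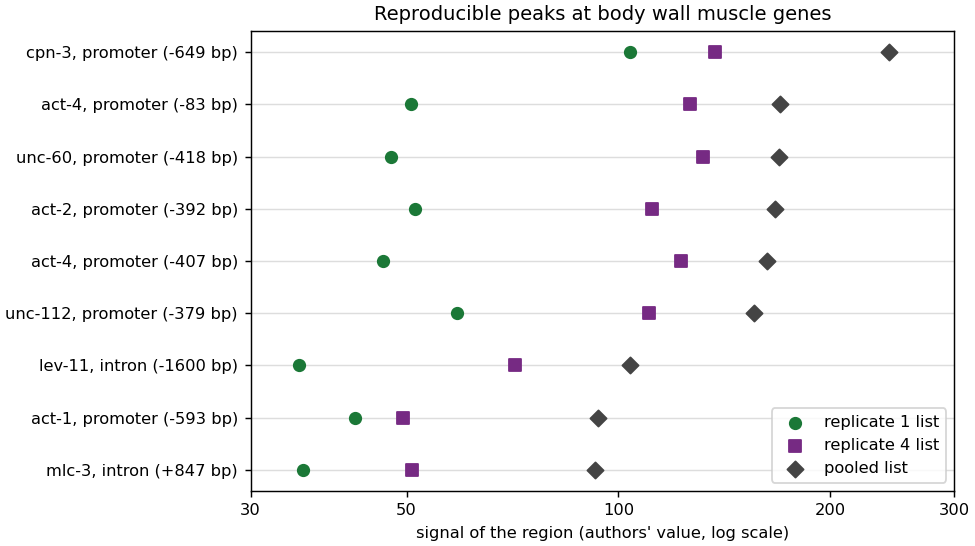
Signal of each of the 9 reproducible peaks at body wall muscle genes (log axis, authors' value) in the replicate 1 list (green circles), the replicate 4 list (purple squares) and the pooled list (grey diamonds). Peaks are ordered by pooled signal, from 243 at cpn-3 to 92.8 in the mlc-3 intron, and the position of the summit from the nearest 5' end of the gene is given in brackets. Signals of different lists are on different scales, so only the order within a list can be read.

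Other thin filament genes had weaker or no promoter summits. For genes outside the reproducible set, the value given for a list is that of its strongest promoter summit, which can lie elsewhere in the window in another list. The closest to the reproducible set was clik-1, which encodes a calponin-like repeat protein, with a summit 106 bp downstream of the 5' end, in 5' untranslated sequence of clik-1 that is also coding sequence of T25F10.1, on the opposite strand, whose promoter window holds the summit too. Its signal was 27.3 (rank 5495) in replicate 1, 35.6 (rank 8496) in replicate 4 and 63.5 (rank 4794) in the pooled list, below the edge of the set in all 3. The regulatory proteins of the thin filament stood lower still. For the troponin I genes unc-27 and tni-1 the pooled promoter signals were 26.8 (rank 28384) and 38.7 (rank 15021), and the troponin T genes mup-2, tnt-2 and tnt-3 had no pooled promoter summit. Each of those 3 had a promoter summit in 1 replicate list, at ranks from 11993 to 29393. Tropomyosin, encoded by lev-11, had a promoter summit of pooled signal 40.2 (rank 13895), and its stronger peak lay in an intron. No promoter summit was found in any of the 4 lists for pat-10, which encodes troponin C, or for unc-87, which encodes a calponin-related protein.

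Thick filament genes carried no reproducible promoter summit, although 4 of the 7 had one in the pooled list and 5 of the 7 in each replicate list. The divergent pair mlc-1 and mlc-2, which encode the regulatory myosin light chains and have 5' ends 2624 bp apart, came closest. The mlc-1 summit, 152 bp upstream, had a signal of 20.4 (rank 12404) in replicate 1, 57.5 (rank 2700) in replicate 4 and 76.6 (rank 3273) in the pooled list. The mlc-2 summit, 247 bp upstream, had signals of 14.1 (rank 28238), 56.9 (rank 2767) and 75.8 (rank 3345). Both stood just below rank 2328 in replicate 4 and far below it in replicate 1, and their pooled ranks were near those of replicate 4.

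The myosin heavy chains had weak or missing promoter summits. For unc-54, the major heavy chain of body wall muscle, a summit 110 bp upstream had a pooled signal of 49.6 (rank 8592). The replicate 1 summit, 135 bp upstream, had 20.0 (rank 13172), and the one summit of replicate 4 in the window, 242 bp upstream and beyond 100 bp of the pooled one, had 24.2 (rank 19219). For myo-3, the heavy chain at the centre of the filament, replicate 4 held the only promoter summit (signal 25.6, rank 17439). The paramyosin gene unc-15 had a signal of 14.9 (rank 25611) in replicate 1, 52.03 (rank 3351) in replicate 4 and 51.1 (rank 8010) in the pooled list, with the replicate 1 summit 258 bp upstream and the others 37 and 46 bp downstream of the 5' end. The myosin chaperone gene unc-45 had none in any list.

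The one reproducible peak at a thick filament gene lay inside mlc-3, which encodes the essential myosin light chain. Its summit was in an intron 847 bp downstream of the 5' end (III, 5565700 to 5566043), with a signal of 35.6 (rank 2746) in replicate 1, 50.95 (rank 3535) in replicate 4 and 92.8 (rank 2276) in the pooled list. It was the weakest of the 9 muscle peaks in the pooled list, though not in either replicate list, and lay outside the 2328 strongest regions of both replicates. Of all reproducible peaks, 94 of 2328 (4.04%) were in that position. The mlc-3 window, chrIII:5565822-5565922 on the plus strand, is printed as the peak nearest to the edge of the set, with the GA runs in capitals.
mlc-3: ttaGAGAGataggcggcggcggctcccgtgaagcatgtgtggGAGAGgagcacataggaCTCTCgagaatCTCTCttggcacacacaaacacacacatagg
The window held 4 GA runs on the 2 strands and no AAGTG, the nearest of which was 833 bp away.

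Among the 12 genes of the dense bodies and M-lines, unc-112 alone had a reproducible promoter peak. A count of 1 in 12 is near the share over all genes, 8.46%. UNC-112, the kindlin, binds the cytoplasmic tail of integrin and is needed to assemble the attachments. The peak (V, 14696861 to 14697204) had its summit 379 bp upstream of the 5' end, with a signal of 59.0 (rank 887) in replicate 1, 111 (rank 761) in replicate 4 and 156 (rank 885) in the pooled list. It ranked nearly alike in the 3 lists and was among the strongest regions of both replicates. Its window, chrV:14696983-14697083 on the minus strand, is shown because it held 7 copies of GAGAG or CTCTC, overlapping ones included, the most of any reproducible muscle promoter peak, all in capitals.
unc-112: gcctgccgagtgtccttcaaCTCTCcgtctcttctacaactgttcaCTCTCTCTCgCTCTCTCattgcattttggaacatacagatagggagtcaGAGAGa
The nearest AAGTG was 275 bp from that summit.

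The proteins that act with UNC-112 did not share its rank. The gene pat-4, for the integrin-linked kinase, had a pooled promoter signal of 52.6 (rank 7504) and 46.2 (rank 4435) in replicate 4, with no promoter summit in replicate 1. The parvin gene pat-6, whose summit lay 391 bp upstream, had 19.7 (rank 13614) in replicate 1, 22.3 (rank 22248) in replicate 4 and 42.8 (rank 12086) in the pooled list. The integrin genes pat-2 (alpha subunit) and pat-3 (beta subunit) had no pooled promoter summit, and each had a weak one in 1 replicate list, of signal 15.04 (rank 25057) in replicate 1 for pat-2 and 21.3 (rank 23887) in replicate 4 for pat-3. For unc-52, the perlecan of the basement membrane, and for unc-97, the PINCH adaptor, pooled signals were 32.9 (rank 20553) and 31.5 (rank 22104). The dense body genes deb-1 (vinculin), atn-1 (alpha-actinin) and alp-1 (a PDZ and LIM domain protein of the Z-disc type) had pooled promoter signals from 30.5 to 39.2. All of these were below the pooled median for genes with a promoter summit except pat-4. The M-line gene unc-98 had a promoter summit in replicate 4 and in no other list, and unc-95, for a LIM domain protein of the attachments, had none.

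The giant and immunoglobulin-domain proteins link and space the filaments. The gene unc-89, for the obscurin-like protein of the M-line, had ranks far apart in the replicates. Its best promoter summit had a signal of 41.8 (rank 1886) in replicate 1, 319 bp upstream of an internal 5' end, but 30.5 (rank 12214) in replicate 4 and 43.9 (rank 11360) in the pooled list, 140 and 113 bp upstream. The titin gene ttn-1 had 17.8 (rank 17380) in replicate 1, 32.6 (rank 10501) in replicate 4 and 46.7 (rank 9866) in the pooled list, at 147, 1 and 83 bp upstream of a 5' end, and zig-12 had a pooled signal of 34.8 (rank 18577). The twitchin gene unc-22 had no promoter summit in any list.

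In the calcium group, egl-19, which encodes the L-type calcium channel that carries the muscle action potential, stood closest to the reproducible set. Its summit was in an intron 427 bp upstream of an internal 5' end, with a signal of 32.4 (rank 3472) in replicate 1, 35.3 (rank 8652) in replicate 4 and 72.5 (rank 3644) in the pooled list. Unlike the 9 reproducible muscle peaks, it had AAGTG 5 bp from the summit, no GAGAG within 50 bp, and a low GC content of 36.6%. GAGAG had itself been picked from those 9 windows. A weaker intronic egl-19 summit, 406 bp downstream of a 5' end (pooled signal 66.2, rank 4394), also had AAGTG 5 bp away. That summit did have GAGAG within 50 bp, and its GC content was 51.5%, so the contrast holds for the stronger summit only. The window of the stronger summit, chrIV:7415734-7415834 on the plus strand, is printed, with the reverse complement of AAGTG in capitals.
egl-19: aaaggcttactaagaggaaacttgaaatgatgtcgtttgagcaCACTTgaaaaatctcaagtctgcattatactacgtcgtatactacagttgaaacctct
The ryanodine receptor gene unc-68, for the channel that releases calcium from the sarcoplasmic reticulum, had a pooled promoter signal of 41.9 (rank 12689), 176 bp upstream of a 5' end, and none in replicate 1. In replicate 4 the summit near that one had 23.1 (rank 21043), and the strongest lay 878 bp upstream with 32.2 (rank 10838). The MyoD gene hlh-1 had 33.2 (rank 20248) in the pooled list and 31.4 (rank 11481) in replicate 4, 132 and 127 bp downstream of a 5' end, and none in replicate 1.

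**Figure D3:**
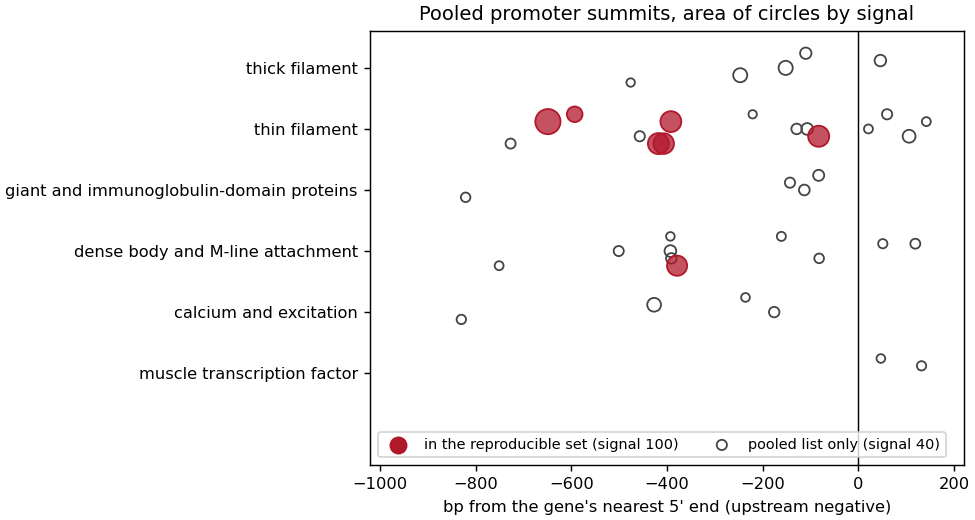
Position of the 40 pooled promoter summits of the 42 genes, as the distance in bp from the nearest 5' end of the gene (upstream negative), by role. The area of a circle is proportional to the pooled signal, filled red circles are in the reproducible set and hollow circles only in the pooled list. The 7 red circles are all upstream, from 83 to 649 bp, and 6 of them are in the thin filament row.

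Over the full lists, promoter summits at body wall muscle genes were more frequent than at all genes in each of the 3 lists. In the pooled list 28 of the 42 genes (66.7%) had one, against 39.1% of all protein-coding genes. In replicate 1 the count was 26 (61.9%), against 42.6%, and in replicate 4 it was 32 (76.2%), against 37.8%. The excess was thus smaller in replicate 1 than in replicate 4, although the direction was shared.

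Several 5' ends give a gene more window in which a summit can fall, and that differed between the muscle genes and the rest. Only 23 of the 42 (54.8%) had a window of 1201 bp, the length given by a single 5' end, against 73.7% of all genes. Among genes with that window, 5 of 23 (21.7%) had a reproducible summit, against 6.8%, and 14 of 23 (60.9%) had a pooled summit, against 33.5%. Counted per length, the promoter windows of the muscle genes (0.0803 Mb) held 87.2 reproducible summits per Mb, against 50.2 over the windows of all genes. The pooled figures were 498 and 356 per Mb, those of replicate 1 were 461 and 376, and those of replicate 4 were 598 and 338. Every one of these comparisons had the muscle genes higher, but the reproducible value rests on 7 summits.

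The summits at muscle genes were no stronger than those of other genes. Among genes with a pooled promoter summit, the strongest one had a median signal of 48.2 over the 28 muscle genes (26.8 to 243) and 47.5 over all 7806 genes. The medians were 20.2 against 22.1 in replicate 1 and 32.4 against 33.4 in replicate 4. By pooled rank, 4 muscle genes (9.52%) had their strongest promoter summit between ranks 2329 and 5000, against 5.3% of all genes, 5 (11.9%) between 5001 and 10000, against 6.39%, and 13 (31.0%) between 10001 and 30000, against 18.9%. The remaining 14 (33.3%) had none, against 60.9%. The surplus over all genes was present in every band of rank, the weakest included.

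Of the 28 strongest pooled promoter summits of muscle genes, 14 (50%) had a summit within 100 bp in both replicate lists, against 44.7% for all genes. A further 12 were found in 1 replicate list and 2 in neither. All 9 reproducible peaks were found in both replicate lists, with replicate summits 0 to 55 bp away. The reproducible set was itself chosen for agreement between these replicates, so that count is a description and no added support. Of the 9 peaks, 6 (66.7%) were among the 2328 strongest regions of both replicates, against 60.1% of all reproducible peaks. The other 3 were act-1, which was there in replicate 1, the lev-11 intron peak, which was there in replicate 4, and mlc-3, which was in neither. The 9 peaks lay at least 7418 bp from the nearest noncoding RNA gene of the classes searched.

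**Figure D4:**
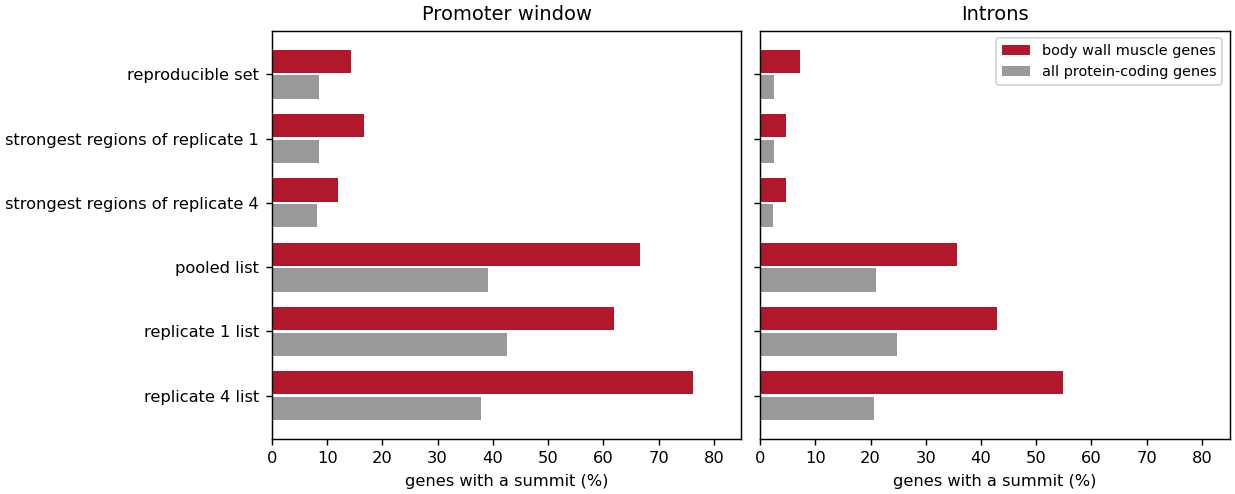
Share of genes (percent) with at least 1 summit in the promoter window (left) and in introns (right) for the 42 body wall muscle genes (red) and all protein-coding genes (grey; for introns, those with an intron), by list. On the left the muscle bars run from 11.9% (against 8.07%) in the strongest regions of replicate 4 to 76.2% (against 37.8%) in its full list. The reproducible set has 14.3% against 8.46%, and the muscle bar is the longer one in each pair.

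Intronic summits were counted where the summit lay in an intron of the gene and in no protein-coding exon. In the reproducible set 3 of the 42 genes (7.14%) had one, against 2.44% of the 19286 genes with an intron. They were mlc-3, act-4, whose intronic summit is also a promoter summit, and lev-11, which encodes tropomyosin. Among the strongest regions of the replicates, the count was 2 (4.76%) in replicate 1, act-4 and unc-89, against 2.5%, and 2 (4.76%) in replicate 4, act-4 and lev-11, against 2.36%. The full lists gave 15 genes (35.7%) in the pooled list, against 20.9%, 18 (42.9%) in replicate 1, against 24.8%, and 23 (54.8%) in replicate 4, against 20.7%.

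The muscle genes were longer than most, and so was the total length of intron per gene. The median gene length was 4646 bp against 2027 bp for all genes, and the median total intron length was 2273 bp against 783 bp. Per length of intron the direction in the reproducible set was reversed, with 13.3 reproducible summits per Mb in the muscle genes (3 summits) against 16.7 over all genes (584 summits). Of those 584, however, 151 (25.9%) lay within 200 bp of a noncoding RNA gene, while none of the 3 muscle summits did. Over the same intron length, leaving those 151 out would put the rate over all genes below 13.3 per Mb. The reversal thus depends on them, and the muscle value rests on 3 summits. In the pooled list the values were 227 and 217 per Mb.

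The lev-11 peak (I, 14626874 to 14627217) lay 1600 bp upstream of the nearest of 11 annotated 5' ends of that gene, in an intron of longer transcripts. Its signal was 35.2 (rank 2825) in replicate 1, 71.4 (rank 1718) in replicate 4 and 104 (rank 1886) in the pooled list, and a second intronic summit of lev-11 had a pooled signal of 82.3 (rank 2855). In the pooled list lev-11 and unc-52 held most intronic summits, 7 each of the 51 at muscle genes, followed by unc-89 with 6 and by egl-19, ttn-1 and unc-68 with 5 each.

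Just below the edge of the reproducible set was a summit in an intron of the twitchin gene unc-22 (IV, 12005454 to 12005797). Its signal was 91.5 (rank 2343) in the pooled list and 47.6 (rank 4145) in replicate 4, and the pooled summit fell inside a tRNA gene (WBGene00014625) within that intron. The nearest summit of replicate 1, with 47.5 (rank 1440), was 82 bp from it and fell in the adjoining exon of unc-22, so that it was not counted as intronic. The strongest intronic summit of unc-68 (V, 6917343 to 6917686), of pooled signal 64.6 (rank 4614) and 53.1 (rank 3179) in replicate 4, also fell inside a tRNA gene (WBGene00023105), and replicate 1 had no summit within 100 bp of it. These were 2 of the 51 pooled intronic summits of muscle genes (3.92%) within 200 bp of a noncoding RNA gene, against 4.17% of pooled and 25.9% of reproducible intronic summits over all genes.

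Short sequences near the 9 reproducible muscle summits were counted on both strands within 50 bp of the summit. AAGTG was present at 0 of the 9, and a rough limit for counting error, 3 of 9 summits, allows a share of up to 33.3%. It was present at 27.1% of all reproducible summits, 24.1% of pooled summits and 20.8% of windows centred 250 bp upstream of the outermost 5' end of every protein-coding gene. That limit is coarse for so few summits, and whether the muscle summits differ from the general share was not tested. The longer forms TTAAGTG and CAAGTG, which contain the core, were at 0 of 9, against 10% of all reproducible summits, and CAGCTG, an E-box of the kind that MyoD proteins bind, was at 0 of 9, against 3.48%. Within 100 bp the count for AAGTG was 1 of 9, at act-2, against 44.1%.

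GAGAG or CTCTC was present within 50 bp of all 9 summits. This sequence was picked after the windows had been read, so that the count over these 9 is a description only. The same letters were found at 46.3% of all reproducible summits, 24.0% of pooled summits and 13.7% of the windows upstream of all genes. The number per window ran from 1 at act-1, act-2 and the upstream act-4 summit to 45 in the lev-11 intron, which is a long GA repeat. GC content in the 9 windows ranged from 47.5% to 65.3% with a median of 50.5%, against a median of 49.5% for all reproducible summits.

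**Figure D5:**
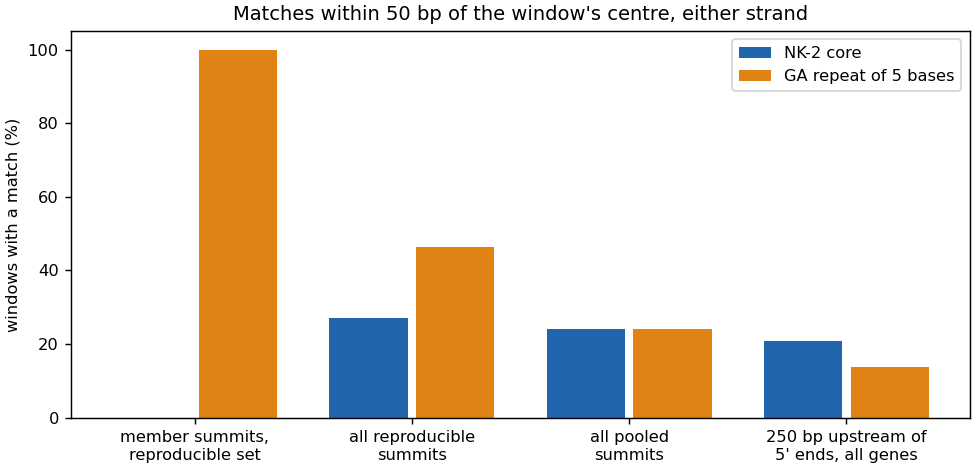
Share of windows (percent) with the NK-2 core AAGTG (blue) or with GAGAG (orange) on either strand within 50 bp of the centre, for the 9 reproducible summits at body wall muscle genes, all 2328 reproducible summits, all 30000 pooled summits, and windows centred 250 bp upstream of the outermost 5' end of each of 19973 genes. No muscle summit has AAGTG, against 27.1% of all reproducible summits, and all 9 have GAGAG, which was chosen from these windows.

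Other muscle genes were taken from a wider list of 79 names, of which 77 matched by name, covering paralogs of other muscles, filament assembly and attachment, calcium and receptors, and regulators. Of the 77, 4 (5.19%) had a reproducible promoter summit, a share below the 8.46% of all genes and below that of the body wall muscle genes, while 51 (66.2%) had a pooled one, against 39.1%. Of these, 3 act on actin filaments or attachments. The capping protein genes cap-1 and cap-2, whose products close the barbed ends of actin filaments, had pooled signals of 123 (rank 1382) and 282 (rank 216), each in a window shared with another gene, D2024.4 and gmps-1. In replicate 1 they had 43.9 (rank 1698) and 110 (rank 175), and in replicate 4 75.0 (rank 1572) and 169.7 (rank 287). The gene rsu-1, whose product binds the PINCH adaptor at the attachments, had 28.6 (rank 4846) in replicate 1, 72.9 (rank 1653) in replicate 4 and 100.1 (rank 2005) in the pooled list.

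The regulator among the 4 was ceh-22, the NK-2 class gene of pharyngeal muscle. Its summit lay 198 bp downstream of an internal 5' end, in coding sequence, with 3 copies of AAGTG within 50 bp. Its signal was 80.2 (rank 448) in replicate 1, 157 (rank 343) in replicate 4 and 224 (rank 405) in the pooled list. None of the 16 paralogs of other muscles and none of the 26 calcium, receptor and dystrophin complex genes had a reproducible promoter summit, against 8.46% of all genes. At that share few would be looked for in groups of this size. In the pooled list 10 of the 16 and 16 of the 26 had a promoter summit, against 39.1% of all genes. Among the 2328 strongest regions of the replicates the count for the wider list was 2 in replicate 1, cap-1 and cap-2, against 8.46% of all genes, and 6 in replicate 4, which added rsu-1, let-805, ceh-22 and egl-27, against 8.07%. Without replicate 4, the count of 4 thus became 2. The loss of ceh-22 was one of position, since its replicate 1 summit of rank 448 lay 27 bp from the pooled one, past the downstream edge of the window and in an intron.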

How the data were processed

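The 2 biological replicates of 1 group were used. The authors deposited a signal value and a −log10 q value for each region of 4 lists on build ce11, per the labels and the notes beside the files. Signal was used to rank regions within a list, and −log10 q was not used. The aligner, the region caller and the threshold on reproducibility were not given in the sources used here. Summits were assigned to protein-coding genes of Ensembl release 115 with coordinates counted from 1, and sequence came from RefSeq. Replicate summits matched within 100 bp. Scripts ran on Python 3.11.15, numpy 2.4.6, pandas 2.3.3 and matplotlib 3.10.9 and were tested on simulated positions.

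The members and lists were chosen with earlier results of these data known, and no test was made. Text names each gene with a reproducible summit, those with a pooled promoter summit of rank up to 5000, and the wider genes with a reproducible promoter summit. The motifs CAGCTG and GAGAG, other genes named with values, the subset with 1201 bp windows and the count without shared windows were chosen after values were seen. Alternatives covered the window, the strength of regions, each replicate, the overlap rule and the motif.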

Additional observations from a re-analysis of the deposited data

How the results depend on the processing

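The count of 6 body wall muscle genes with a reproducible promoter summit was 4 with 500 bp upstream (9.52%, against 6.63% of all genes) and 9 with 2000 bp upstream (21.4%, against 11.2%), where act-3, lev-11 and unc-97 were added. It was 5 among the 1164 strongest peaks (11.9%, against 4.9%), 6 with the outermost 5' end (14.3%, against 7.72%), 5 without shared windows and 5 to 7 with 1 replicate left out. For the count without shared windows no share over all genes was computed. The 3 genes with an intronic summit became 1 among the 1164 strongest peaks and 2 without promoter summits. No share over all genes was computed for either setting, so whether the muscle genes stayed higher is not known. With either replicate left out the count was 2 (4.76%), against 2.36% without replicate 1 and 2.5% without replicate 4. The 4 genes of the wider list became 12 with 2000 bp upstream (15.6%, above the 11.2% of all genes, where the main share was below that of all genes), 3 with the outermost 5' end, where ceh-22 was lost, and 2 to 6 with 1 replicate left out. AAGTG was at 0 of 9 summits within 50 bp and at 1 within 100 bp. All 7 promoter peaks were found in both replicates with summits within 100 or 200 bp, and 6 under 50% reciprocal overlap. The set had been chosen for agreement between the replicates, and no share over all reproducible peaks was computed for these counts. No paired analysis was possible because there was 1 group. Depth is unknown, the lists are capped at 30000 regions, and many annotated 5' ends of worm genes mark trans-splicing rather than the start of transcription.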

Other observations

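Both replicates marked a region in an intron of dim-1, which encodes an immunoglobulin-domain protein of the filament lattice, that had no counterpart in the pooled list. The summits lay 529 bp upstream of an internal 5' end in replicate 1 (signal 25.5, rank 6646) and 533 bp upstream in replicate 4 (signal 41.2, rank 5931). Among 2762 pairs of regions within 100 bp that were in the strongest 7000 of both replicates, 28 (1.01%) had no pooled summit within 200 bp.

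By chromosome, 4 of the 10 body wall muscle genes on V had a reproducible promoter summit, against 5.89% of all genes on V. On X it was 1 of 12, against 9.23%, and on I 1 of 8, against 10.6%. None of the 2 on II, the 5 on III or the 5 on IV had one, against 7.54%, 11.9% and 8.05%. The 4 on V are act-1, act-2, unc-60 and unc-112, of which act-1 and act-2 are neighbours. These counts were made after the values were seen.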
